A study of Caenorhabditis briggsae with 6 samples.

Results

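Levels of 5 genes of the heat shock and unfolded protein responses, of 23169 C. briggsae genes counted, were compared between Cbr-ivph-3 mutant and wild-type larvae. The mitochondrial chaperone genes among them were lower in every mutant library than in any wild-type library, and the cytosolic ones were higher. The genotypes were separate in this way for 42.3% of tested genes. Cbr-hsp-70, a cytosolic one, was not called as changed at an adjusted p under 0.05. Other cytosolic chaperone genes, described further on, went both ways. Cbr-hsp-60 (WBGene00032785) and Cbr-hsp-6 (WBGene00030552) encode mitochondrial chaperones, and Cbr-hsp-70 (WBGene00040668) and Cbr-sip-1 (WBGene00037808) encode cytosolic ones. Cbr-xbp-1 (WBGene00039220) encodes a transcription factor of the endoplasmic reticulum (ER) unfolded protein response. Identifiers were matched to these names through the supplementary gene lists of the study, which hold genes called in 1 or more mutants, so each of the 5 genes had already been called in some mutant. All 5 passed the filter on low counts.

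Cells answer unfolded protein with a separate program in each compartment. The heat shock response raises cytosolic chaperones, among them the heat-inducible HSP70s and the small heat shock proteins, which bind unfolding proteins and keep them from aggregating. The mitochondrial unfolded protein response raises the matrix HSP70 and the HSP60 chaperonin, which fold imported proteins, and in C. elegans the hsp-6 and hsp-60 promoters are standard reporters of it. The ER branch runs through the kinase and nuclease IRE-1, which splices xbp-1 mRNA so that the active transcription factor can be made. The roles given for single genes are those of their C. elegans namesakes unless another source is named.

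RNA came from whole C. briggsae hermaphrodites at the L3 larval stage, staged by divisions of the vulval precursor cells and grown at 20 °C on OP50 bacteria. The control is strain AF16, the wild type, and the mutant is strain PS9217, which carries Cbr-ivph-3(sy5216), an allele with a premature stop codon in a gene of the LIN-15B-domain family. Each genotype has 3 independent biological replicates, and only this 1 allele was sequenced. In RNA from whole larvae, a change in the number of cells of a type cannot be told apart from a change in RNA per cell.

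Depth did not limit the 2 abundant mitochondrial genes but was thin for the cytosolic ones in wild type. The libraries held 22817581 to 30865944 counts. Cbr-ivph-3 (WBGene00026246) itself was at 33.01 to 36.5 CPM (counts scaled to library size, adjusted by the trimmed mean of M-values, TMM) in the control and at 20.9 to 21.05 CPM in the mutant. It was called lower in the mutant (log2 fold change -0.72, edgeR quasi-likelihood adjusted p = 0.00565). This checks the labels only weakly, because the allele is a substitution that adds a stop codon and does not remove the gene. The cause of the fall was not tested. Mutant replicate 1 stood apart from mutant replicates 2 and 3. Of 14241 tested genes, 271 (1.90%) were at least 4-fold higher and 71 (0.499%) at least 4-fold lower in mutant replicate 1 than the mean of the other two. The summed level of 8 germline markers, none of them at 0 in any library, was 306 to 314 CPM in wild type. It was 339 and 349 CPM in mutant replicates 2 and 3, and 825 CPM in mutant replicate 1. Of the 8 markers, 3 were called higher in the mutant, beside 11.7% of all tested genes. The muscle markers Cbr-myo-1 and Cbr-myo-5 summed to 387 to 640.1 CPM in wild type, 113 and 121 CPM in mutant replicates 2 and 3, and 341 CPM in mutant replicate 1, and neither was called. Their part in the results that follow was not tested. Each of the 5 genes, and each count over a pathway list, is given with and without mutant replicate 1.

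Cbr-hsp-60, Cbr-hsp-6 and Cbr-sip-1 were called in the comparison of mutant with wild type, the first 2 lower and the last higher, at an adjusted p under 0.05 in edgeR's quasi-likelihood (QL) test. That is 3 of 5 genes, where 21.5% of all tested genes were called (11.7% higher and 9.80% lower). Cbr-hsp-70 and Cbr-xbp-1 narrowly missed the threshold and were not called. In all 5 genes the mutant libraries lay wholly above or wholly below the wild-type libraries, which was so for 42.3% of tested genes (22.2% with the mutant above and 20.1% with it below). Without mutant replicate 1 all 5 were called, but so were 59.7% of tested genes (31.1% higher and 28.6% lower).

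**Figure D1:**
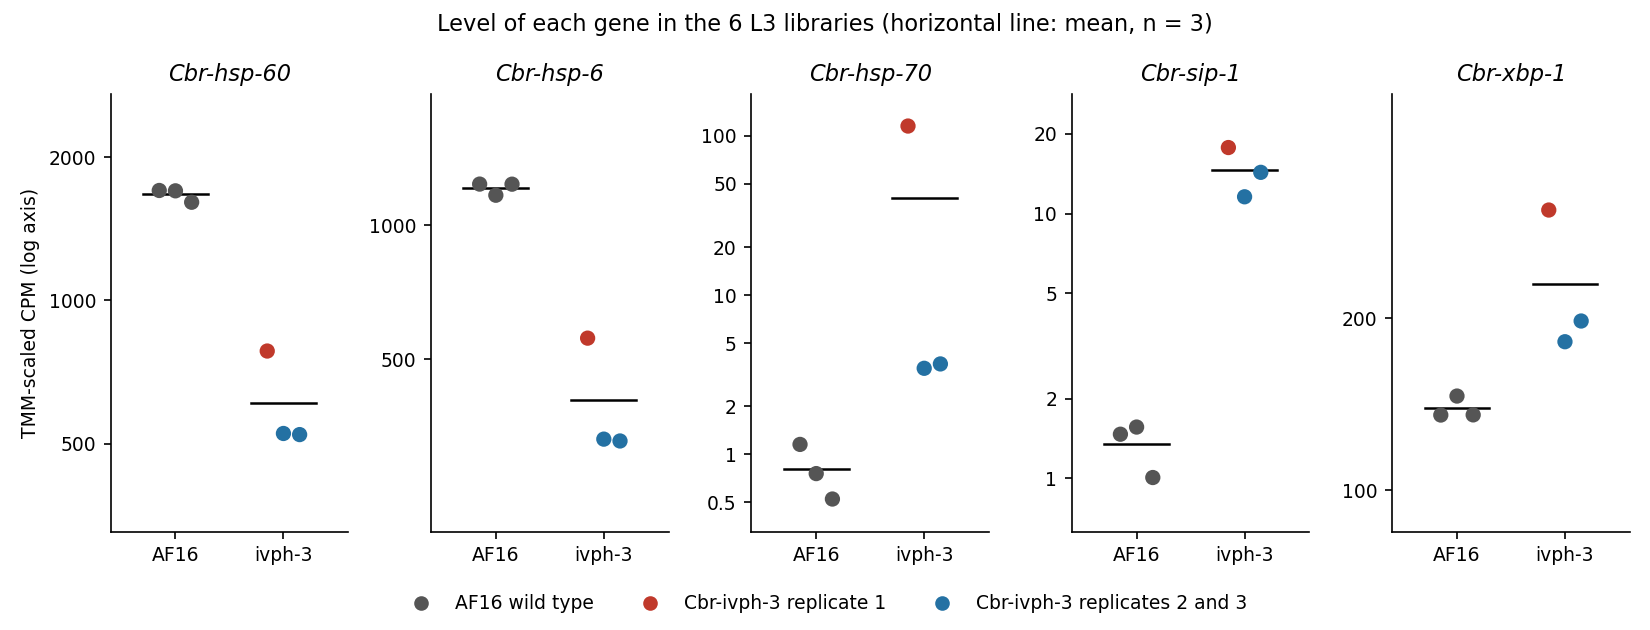
Level of each gene in TMM-scaled CPM (log axis, a separate range in each panel) in the 3 AF16 and 3 Cbr-ivph-3 libraries, with a horizontal line at each mean and mutant replicate 1 in red. Cbr-hsp-60 and Cbr-hsp-6 lie lower in every mutant library and the other 3 genes higher, and Cbr-hsp-70 is at 115 CPM in mutant replicate 1 against 3.47 and 3.70 CPM in replicates 2 and 3.

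The mitochondrial chaperonin gene Cbr-hsp-60 fell in the mutant. It measured 1704, 1701 and 1609.8 CPM in wild-type replicates 1, 2 and 3, and 783, 525 and 522 CPM in mutant replicates 1, 2 and 3. The wild-type libraries lay close together, mutant replicates 2 and 3 were nearly equal, and mutant replicate 1 lay between them and wild type without reaching either. Against the wild-type mean, the 3 mutant libraries were at 46.8%, 31.4% and 31.2%. Wild type averaged 1672 ± 53.8 CPM and the mutant 609.9 ± 149.7 CPM (SD, n = 3 each). The log2 fold change was -1.45 with a standard error (SE) of 0.19 (edgeR QL adjusted p = 0.00375), and 177 of the 14241 tested genes had a lower one. Without mutant replicate 1 it was -1.68 (SE 0.09), and the gene was called in all 14 alternative fits, with log2 fold changes from -1.68 to -1.16.

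Cbr-hsp-6, which encodes the HSP70 of the mitochondrial matrix, followed the same course. It was at 1239, 1169.7 and 1239 CPM in wild-type replicates 1, 2 and 3, and at 557, 330.0 and 327 CPM in mutant replicates 1, 2 and 3. Again every mutant library lay below every wild-type library, and mutant replicate 1 was the highest of the mutants, at 45.8% of the wild-type mean against 27.1% and 26.9%. Wild type averaged 1216 ± 40.04 CPM and the mutant 405 ± 132 CPM (SD, n = 3 each), and the gene fell by 1.59 on the log2 scale (SE 0.23, edgeR QL adjusted p = 0.00544). The log2 fold change was -1.90 (SE 0.09) without mutant replicate 1, and it ranged from -1.90 to -1.30 over 14 alternative fits, with a call in each.

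Cbr-hsp-60 and Cbr-hsp-6 fell together. The log2 ratio of Cbr-hsp-60 to Cbr-hsp-6 counts within a library, to which no scaling between libraries is applied, ranged from 0.38 to 0.54 among wild-type libraries and from 0.49 to 0.68 among mutant libraries. These ranges overlap only through mutant replicate 1, since mutant replicates 2 and 3 were at 0.67 and 0.68, above every wild-type library. The means differed by 0.15, and by 0.21 without mutant replicate 1. With all 6 libraries the genes alone fell by 1.45 and 1.59. Among 1703 other named genes with a mean of at least 5 CPM, Cbr-hsp-6 ranked 14th in likeness to Cbr-hsp-60, with a root mean square difference of 0.11 between the centred log2 CPM of the genes over the 6 libraries.

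The heat-inducible cytosolic HSP70 gene, Cbr-hsp-70, was near the lower end of detection in wild type and uneven among the mutant libraries. It had 26, 17 and 12 counts in wild-type replicates 1, 2 and 3, which is 1.16, 0.759 and 0.525 CPM. In mutant replicates 1, 2 and 3 it had 3318, 93 and 132 counts, or 115, 3.47 and 3.70 CPM. The genotypes did not overlap, since the lowest mutant library, with an exact 95% Poisson interval of 2.80 to 4.25 CPM, lay above the highest wild-type one, with an interval of 0.755 to 1.69 CPM. These intervals cover counting error only. Mutant replicate 1 was 32.0-fold above the mean of mutant replicates 2 and 3, a ratio that 14 of the 14241 tested genes exceeded.

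This spread sets what can be said of Cbr-hsp-70. Over all 6 libraries wild type averaged 0.813 ± 0.319 CPM and the mutant 40.7 ± 64.2 CPM (SD, n = 3 each). The log2 fold change of 5.64 had an SE of 1.65 and missed the threshold (edgeR QL adjusted p = 0.0527). Without mutant replicate 1 it passed with a much smaller change, 2.13 (SE 0.27, edgeR QL adjusted p = 2.26e-04), against adjusted p from 2.26e-04 to 0.261 over the 13 alternative fits that gave one, 6 of which called the gene. It was called without mutant replicate 2 or without mutant replicate 3 (6.18 in both), and not without any 1 wild-type library (5.39 to 5.96). HSP70s are a multigene family, and in RefSeq Cbr-hsp-70 overlaps another gene, CBG22023, so how the counting assigned shared reads is uncertain.

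Cbr-sip-1, which encodes a small heat shock protein of the alpha-crystallin family found in C. elegans oocytes and embryos, rose in every mutant library to a like degree. It had 33, 35 and 23 counts in wild-type replicates 1, 2 and 3 (1.47, 1.56 and 1.01 CPM) and 513, 310 and 511 counts in mutant replicates 1, 2 and 3 (17.8, 11.6 and 14.3 CPM). The lowest mutant library was far above the highest wild-type library, and mutant replicate 1 was only 1.37-fold above the mean of the other mutants. The mutant mean of 14.5 ± 3.10 CPM was 10.8-fold above the wild-type mean of 1.35 ± 0.297 CPM (SD, n = 3 each). The log2 fold change was 3.43 (SE 0.26, edgeR QL adjusted p = 6.58e-04), and 96 tested genes had a higher one. It was 3.26 (SE 0.19) without mutant replicate 1 and 3.22 to 3.73 over 14 alternative fits, with a call in each.

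Both cytosolic genes were highest in mutant replicate 1, but they differed in how far it stood above the other mutants (32.0-fold against 1.37-fold). The log2 ratio of Cbr-hsp-70 to Cbr-sip-1 counts was -1.04 to -0.34 in wild type, 2.69 in mutant replicate 1, and -1.74 and -1.95 in mutant replicates 2 and 3. Relative to Cbr-sip-1, Cbr-hsp-70 was therefore above wild type in 1 mutant library and below it in the other two. The summed germline markers were at 825 CPM in mutant replicate 1 and 339 and 349 CPM in the others. They had the same highest library as Cbr-hsp-70, Cbr-sip-1 and Cbr-xbp-1, and their part in the levels of these genes was not tested.

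Cbr-xbp-1, the ER stress transcription factor gene, was moderately higher in each mutant library. It measured 135, 146 and 136 CPM in wild-type replicates 1, 2 and 3, and 309.6, 182 and 198 CPM in mutant replicates 1, 2 and 3. All 3 mutant libraries were above all 3 wild-type libraries, with mutant replicate 1 at 223% of the wild-type mean and the others at 131% and 142%. The means were 139 ± 6.20 and 229.8 ± 69.5 CPM (SD, n = 3 each), and the log2 fold change of 0.72 (SE 0.22) missed the threshold (edgeR QL adjusted p = 0.0563). In this fit 2223 tested genes had a higher log2 fold change. Without mutant replicate 1 it was smaller, 0.44, but with an SE of 0.08 it passed (edgeR QL adjusted p = 0.00172, against 0.00172 to 0.217 over 14 alternative fits, 4 of which called it). It did not pass without any 1 of the other 5 libraries. Counts per gene do not separate the spliced from the unspliced form of xbp-1 mRNA, so they carry no measure of IRE-1 activity.

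**Figure D2:**
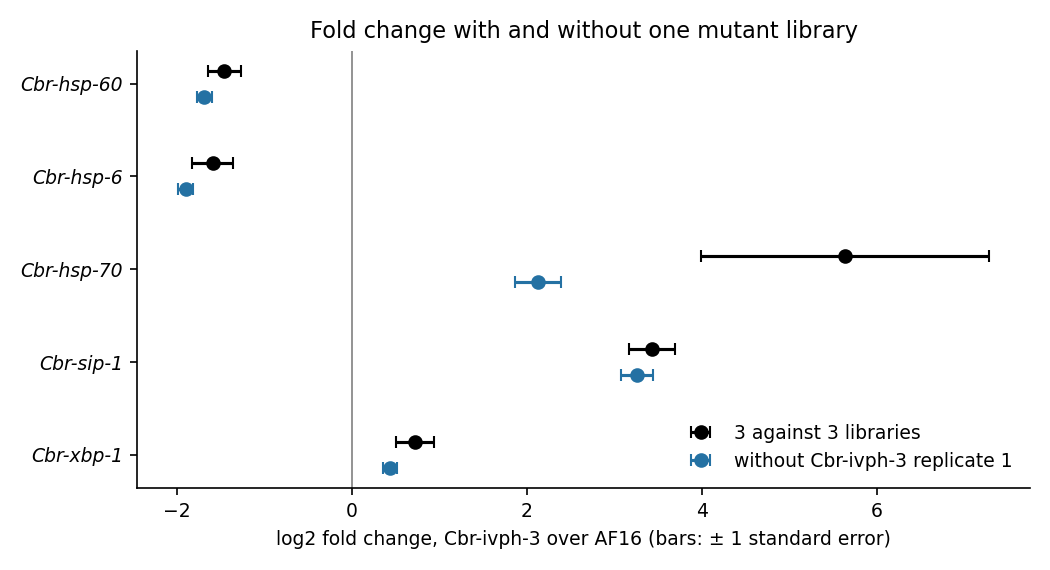
Log2 fold change of Cbr-ivph-3 over AF16 larvae for each gene, with bars of 1 standard error, for 3 against 3 libraries (black) and without mutant replicate 1 (blue). The estimate for Cbr-hsp-70 goes from 5.64 to 2.13 and its bar narrows, while Cbr-hsp-60, Cbr-hsp-6 and Cbr-sip-1 move by at most 0.31.

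Mitochondrial and cytosolic chaperones were then set against each other within each library, as the log2 ratio of their counts, for the 4 pairs of 1 mitochondrial and 1 cytosolic gene. Gene lengths were not used, so only the difference of a ratio between libraries can be read, and no test was made. The ratio of Cbr-hsp-60 to Cbr-sip-1 was 10.18, 10.09 and 10.64 in wild-type replicates 1, 2 and 3, and 5.46, 5.50 and 5.19 in mutant replicates 1, 2 and 3. The mutants were close to one another and about 5 log2 units below wild type, with means that differed by -4.92 (-4.96 without mutant replicate 1). The ratio of Cbr-hsp-6 to Cbr-sip-1 behaved alike, with a difference of -5.07 (-5.17 without mutant replicate 1).

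With Cbr-hsp-70 as the cytosolic gene, mutant replicate 1 separated from the rest. The ratio of Cbr-hsp-60 to Cbr-hsp-70 was 10.53, 11.13 and 11.58 in wild-type replicates 1, 2 and 3, and 2.77, 7.24 and 7.14 in mutant replicates 1, 2 and 3. The mean difference was -5.36, and -3.89 without mutant replicate 1. For Cbr-hsp-6 over Cbr-hsp-70 it was -5.51, and -4.10 without mutant replicate 1. The genotypes did not overlap in any of the 4 ratios, and the smallest gap between them was 3.29 log2 units. In this measure the direction is fixed by the opposite movement of the genes already described.

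**Figure D3:**
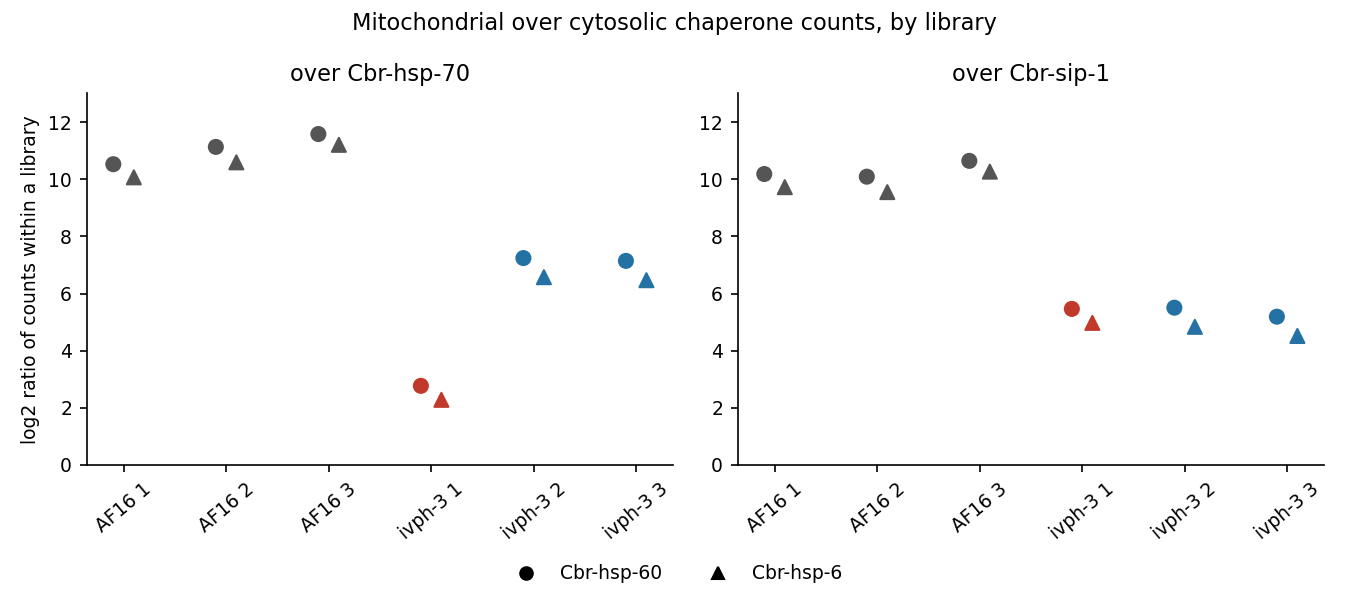
Log2 ratio of counts of Cbr-hsp-60 (circles) or Cbr-hsp-6 (triangles) over Cbr-hsp-70 (left) or Cbr-sip-1 (right) in each library, with AF16 in grey, mutant replicate 1 in red and mutant replicates 2 and 3 in blue. All mutant points lie below all wild-type points, and mutant replicate 1 is lowest over Cbr-hsp-70 (2.77 and 2.28) but level with the other mutants over Cbr-sip-1.

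Cbr-xbp-1 moved against the mitochondrial genes by nearly the same amount in every mutant library. The log2 ratio of Cbr-hsp-60 to Cbr-xbp-1 was 3.54 to 3.65 in wild type, and 1.34, 1.53 and 1.40 in mutant replicates 1, 2 and 3. The mean difference was -2.17, and -2.12 without mutant replicate 1. Cbr-hsp-60, Cbr-hsp-6 and Cbr-xbp-1 were each highest, among the mutants, in mutant replicate 1, by 1.495-, 1.70- and 1.63-fold over the mean of the other two.

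The genes most like each of the 5 in pattern were sought among named genes, whose names came from the same lists of called genes. Cbr-hsp-60 was closest to Cbr-slc-25A32 (0.03 root mean square difference in log2 units), Cbr-vha-13 (0.03), which encodes a vacuolar proton ATPase subunit, and Cbr-smd-1 (0.07), which encodes S-adenosylmethionine decarboxylase. Cbr-hsp-6 was closest to the aconitase gene Cbr-aco-1 (0.02), the dihydrolipoamide dehydrogenase gene Cbr-dld-1 (0.07) and the intermediate filament gene Cbr-ifb-2 (0.07). Cbr-aco-1 was at 574 to 612 CPM in wild type and 278, 157 and 158 CPM in mutant replicates 1, 2 and 3, with mutant replicate 1 the highest of the mutants as for Cbr-hsp-6. Cbr-xbp-1 was closest to Cbr-spe-5 (0.07), Cbr-tag-153 (0.07) and the acyl-CoA dehydrogenase gene Cbr-acdh-6 (0.08).

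No named gene came close to Cbr-hsp-70. Its nearest were Cbr-nrps-1 (1.42), a nonribosomal peptide synthetase gene, Cbr-lea-1 (1.44) and the collagen gene Cbr-col-129 (1.48), at differences of over 1 log2 unit. Cbr-lea-1, which encodes a late embryogenesis abundant protein, was at 26.9 to 29.8 CPM in wild type and at 29.8 and 29.9 CPM in mutant replicates 2 and 3, but at 285 CPM in mutant replicate 1. Cbr-sip-1 came next after these 3 (1.53). Cbr-sip-1 itself was closest to Cbr-mina-1 (0.14), the poly(ADP-ribose) polymerase gene Cbr-parp-1 (0.27) and Cbr-let-99 (0.29), which acts in spindle positioning, and all 3 were higher in each mutant library than in any wild-type library.

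Other genes of the same pathways were read from 7 lists with 113 symbols, of which 50 could be paired with an identifier and the others were not analysed here. With the 5 genes above set aside, 21 were named through lists of genes called in the mutants Cbr-spr-4(gu163) or Cbr-htz-1(gu167). Of these 21, 2 rose, 11 fell and 8 did not pass, beside 11.7% of all tested genes called higher and 9.80% called lower. In 18 of the 21 the genotypes did not overlap, which held for 42.3% of all tested genes. The median log2 fold change of the 21 was -0.74, against 0.06 over all tested genes. Without mutant replicate 1, 4 rose, 15 fell and 2 did not pass, beside 31.1% of all genes then called higher and 28.6% lower. With any other library left out, none rose and 8 fell. Those fits called fewer genes in general, 605 to 935 higher and 625 to 712 lower of 14352 to 14658 tested. Since these genes were named through lists of calls in other mutants, their shares are a description.

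The list with the most of these genes, mitochondrial protein folding and import, held 13 of the 21 genes and 8 of the 13 calls. Of these 13 genes, 8 fell, none rose and 5 did not pass (median log2 fold change -0.78), beside 9.80% of all tested genes called lower. Cbr-tomm-40, the channel of the outer membrane, was at 299.8, 333 and 298 CPM in wild-type replicates 1, 2 and 3, and at 128, 117 and 123 CPM in mutant replicates 1, 2 and 3, so that here mutant replicate 1 was level with the others (log2 fold change -1.34, SE 0.12, edgeR QL adjusted p = 9.69e-04). The mitochondrial DnaJ gene Cbr-dnj-10 (-1.22), the prohibitin gene Cbr-phb-1 (-1.11), the import receptor gene Cbr-tomm-70 (-1.02), the inner membrane channel gene Cbr-timm-23 (-0.92) and the insertase gene Cbr-oxa-1 (-0.86) fell as well, as did Cbr-tomm-20 (-0.78) and Cbr-mppb-1 (-0.70).

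The 5 that did not pass were Cbr-mtx-1 (-0.51), Cbr-phb-2 (-0.76), Cbr-tomm-22 (-0.66), Cbr-mppa-1 (-0.42) and Cbr-timm-17B.1 (-0.12), named after their values were seen. The list had 12 lower genes without mutant replicate 1, beside 28.6% of all genes called lower, and Cbr-timm-17B.1 did not pass (0.16). With any other library left out, 7 were lower, beside 625 to 712 of all tested genes. Unlike Cbr-hsp-60 and Cbr-hsp-6, 9 of the 13 were lower in mutant replicate 1 than in the mean of the other two. Cbr-timm-17B.1 showed this most, at 124 CPM in mutant replicate 1 and 263 CPM in both other mutants, against 216 to 263 CPM in wild type. Under scaling by library totals, which raised the median of all tested genes to 0.37, 6 of the 13 were lower and Cbr-timm-17B.1 turned to 0.23. That scaling called 646 of all 14241 tested genes lower.

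In the ER folding and translocation list the called genes split. Cbr-sec-61.A, a subunit of the translocation channel, fell by 1.19 on the log2 scale (wild type 1335 ± 75.5 CPM, mutant 585 ± 222 CPM, SD, n = 3 each), and the protein disulfide isomerase gene Cbr-pdi-2 fell by 0.95. Both were highest, among the mutants, in mutant replicate 1. The FK506-binding protein genes Cbr-fkb-1 and Cbr-fkb-7, which encode peptidyl-prolyl isomerases, rose by 0.71 and 0.68. The remaining 2 of the 6 genes, Cbr-txdc-12.1 (0.44) and the prolyl 4-hydroxylase gene Cbr-phy-2 (0.40), did not pass. These 4 genes had their lowest mutant level in mutant replicate 1, the reverse of Cbr-xbp-1. Without that library all 4 were called higher, beside 31.1% of all genes. Cbr-sec-61.A and Cbr-pdi-2 were then called lower, beside 28.6% of all genes. All calls in this list were lost on leaving out any 1 of the other 5 libraries, and at an adjusted p under 0.01. Over all tested genes, those fits called 1240 to 1637 and that threshold 1162, against 3062 in the main fit.

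The other lists held few genes with an independent name. In the cytosol, the co-chaperone gene Cbr-sgt-1 fell by 0.74 (wild type 367 ± 10.6 CPM, mutant 220.1 ± 11.02 CPM, SD, n = 3 each; by 0.79 without mutant replicate 1), while Cbr-sip-1 rose. In ER stress signalling, Cbr-eif-2alpha, whose product is phosphorylated by the kinase PEK-1, passed in neither fit (log2 fold change -0.28, and -0.18 without mutant replicate 1), and it turned to 0.04 under scaling by library totals.

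**Figure D4:**
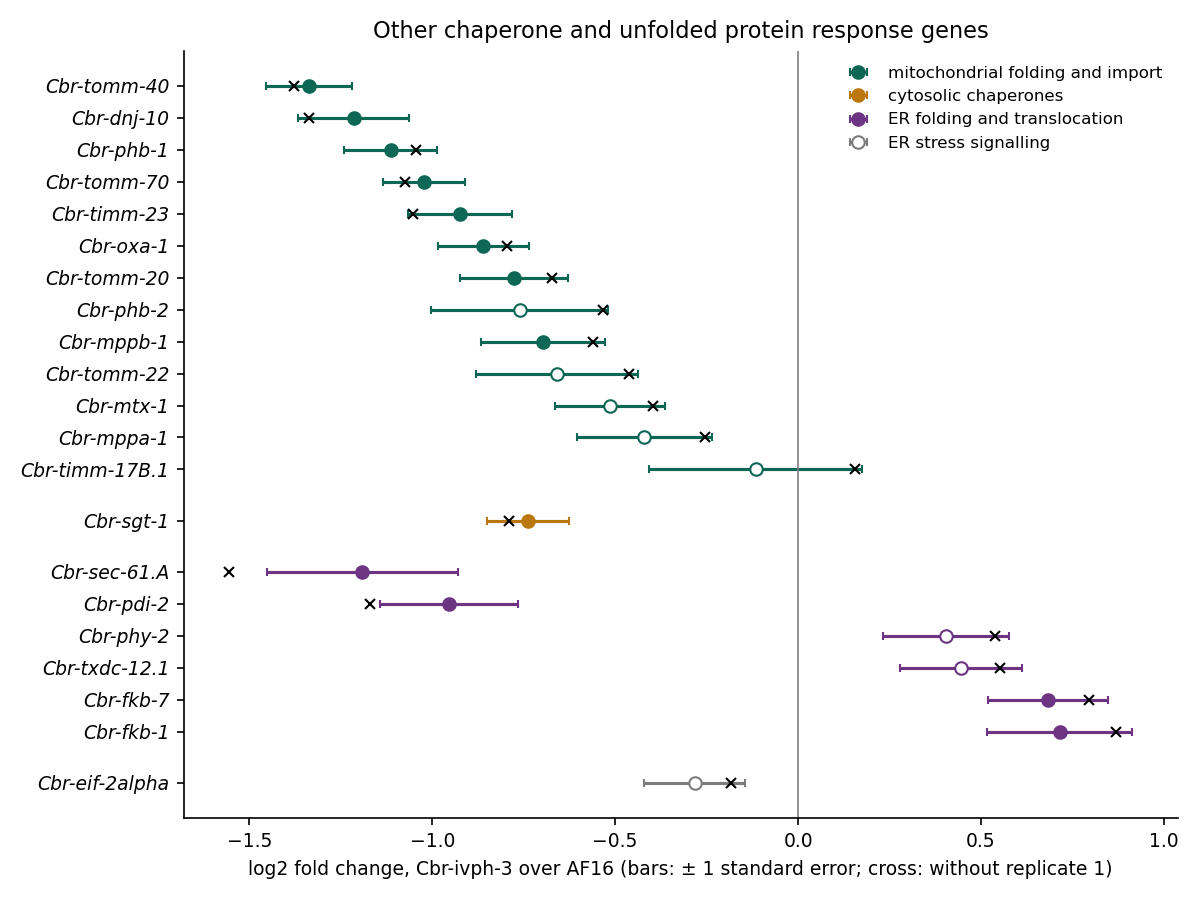
Log2 fold change of Cbr-ivph-3 over AF16 larvae for the 21 other genes named through the lists of other mutants, with bars of 1 standard error, filled circles where the gene was called and crosses for the value without mutant replicate 1. In mitochondrial folding and import all 13 values with 6 libraries lie below 0, with 8 called (Cbr-timm-17B.1 turned to 0.23 under library totals), and the ER folding genes fall on both sides.

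A further 24 genes reached the table by name only through the study's list of calls specific to Cbr-ivph-3, so their own calls are a description and support nothing. Here 4 of them were called higher and 10 lower, and 10 did not pass, beside 11.7% and 9.80% of all tested genes. All 24 were called without mutant replicate 1, 4 of them higher and 20 lower, beside 59.7% of all genes. With any other library left out, none was higher and 2 to 4 were lower. Those fits called 605 to 935 of all tested genes higher and 625 to 712 lower. Among cytosolic chaperones, the small heat shock protein genes Cbr-hsp-25 (-0.92) and Cbr-hsp-12.2 (-1.02) were lower and Cbr-ahsa-1, an activator of HSP90, was higher (0.54). Cbr-hsp-25 ranged from 172 to 204 CPM in wild type and stood at 92.6 to 100.8 CPM in mutant libraries, the opposite direction to Cbr-sip-1 in the same protein family. In the cytosolic chaperonin and prefoldin list, Cbr-cct-1 (-0.82), Cbr-cct-4 (-0.86), Cbr-cct-5 (-0.42) and Cbr-cct-8 (-0.58) were lower, and Cbr-cct-6 (-0.56), Cbr-cct-7 (-0.91) and Cbr-pfd-3 (-0.42) did not pass. All 7 of these were lower without mutant replicate 1, beside 28.6% of all genes. None was called with any other library left out, where 1240 to 1637 genes were called in all.

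In the same group, the mitochondrial protease genes Cbr-spg-7 (-0.75) and Cbr-ymel-1 (-0.41) were lower, Cbr-lonp-1 (-0.47) did not pass, and Cbr-ubl-5, a ubiquitin-like factor of the mitochondrial unfolded protein response, was higher (0.56). The ER kinase gene Cbr-pek-1 was higher (0.73), at 58.8 to 66.6 CPM in wild type and 135, 90.4 and 86.6 CPM in mutant replicates 1, 2 and 3, so that mutant replicate 1 was the highest, as for Cbr-xbp-1. The ER chaperone genes Cbr-crt-1 (-0.53) and Cbr-enpl-1 (-0.30) did not pass, and Cbr-trap-3 (-0.60) was lower. Cbr-emc-5 (-0.44), Cbr-emc-1 (-0.49) and Cbr-erp-44.2 (-0.49) did not pass. These 6 genes of ER folding and translocation were all lower without mutant replicate 1, beside 28.6% of all genes. None was called with any other library left out, where 1240 to 1637 genes were called in all. Of the genes for disposal of misfolded protein, Cbr-sqst-1, which encodes an autophagy receptor, was higher (0.47), Cbr-ubc-7 was lower (-0.56) and Cbr-ufd-1 (-0.34) did not pass. Under scaling by library totals Cbr-enpl-1 turned to 0.02.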

How the data were processed

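The deposited values are whole counts of read pairs per gene for 23169 genes in 6 libraries. Per the labels and the study's methods, the authors aligned paired-end reads with RNA STAR to the WS279 genome and counted them with featureCounts on Galaxy, at a reverse-stranded setting although the named kit does not mark strand; overlapping or antisense genes cannot be told apart, and tool versions are not given in the sources used here. Per-sample and combined counts were identical.

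The genotype effect was fitted across all genes in edgeR 4.0.16 (R 4.3.3) after filterByExpr, which kept 14241 genes, and TMM scaling, by robust glmQLFit and glmQLFTest with Benjamini-Hochberg adjustment over all tested genes and genotype as the only term. The standard error is the log2 fold change over the square root of F. The test was checked on simulated counts, with changes only in genes above a count floor, a capped spread between replicates and no library set apart. That check does not cover a spread like that of Cbr-hsp-70. Alternatives were DESeq2 size factors, upper-quartile scaling, library totals, at least 1 count in any library, at least 10 counts in every library, DESeq2 1.42.0, voom from limma 3.58.1, an adjusted p under 0.01, a replicate block, and each library left out. Replicates with the same number deviated from the genotype means with correlations of 0.152, 0.174 and -0.067 across genes, so numbers were not taken to pair libraries.

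Names came from the study's gene lists, which pair 3900 identifiers with a locus name, and from RefSeq (CB4) by locus, and 1915 had a symbol. From each list, up to 6 genes with the smallest p were to be named, and the text names others too, after their values were seen. For likeness, the 3 genes with the smallest root mean square difference of centred log2(CPM + 0.1) were named. The members and lists were chosen with earlier results of these data known. No sequence is shown, since no sequence was used here.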

Additional observations from a re-analysis of the deposited data

How the results depend on the processing

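Cbr-hsp-60, Cbr-hsp-6 and Cbr-sip-1 kept their direction and their call in all 14 alternative fits and at an adjusted p under 0.01. Cbr-hsp-70 passed under library totals (5.83), upper-quartile scaling (5.63) and with a replicate block (4.26). DESeq2 gave it a log2 fold change of 5.63 but no p and no adjusted p. Cbr-xbp-1 passed under DESeq2 (0.69), library totals (1.02) and upper-quartile scaling (0.79). The members called thus numbered 5 under library totals and upper-quartile scaling, 3 of them higher. Library totals called 3297 of 14241 tested genes higher and 646 lower, and upper-quartile scaling 1833 and 1072. Under DESeq2 and with the replicate block, 2 members were called higher, beside 1914 of 16189 and 1236 of 14241 genes. With single libraries left out, 3 to 5 members were called, 1 to 3 of them higher, beside 1240 to 8644 genes called in all. The log2 fold changes were then -1.68 to -1.36 (Cbr-hsp-60), -1.90 to -1.46 (Cbr-hsp-6), 2.13 to 6.18 (Cbr-hsp-70), 3.22 to 3.57 (Cbr-sip-1) and 0.44 to 0.87 (Cbr-xbp-1). The mean differences of the 4 ratios were -6.12 to -3.89 and -6.25 to -4.10 over Cbr-hsp-70. Over Cbr-sip-1 they were -5.03 to -4.75 and -5.22 to -4.86. Leaving out a library cannot make separate genotypes overlap, so their separation in these fits adds nothing. Of the 21 pathway genes, 1 was called higher with DESeq2 size factors, at least 1 count in any library, upper-quartile scaling or the replicate block, 4 with library totals and 0 at an adjusted p under 0.01, where 7 were lower. That threshold called 631 of 14241 tested genes higher and 531 lower. With single libraries left out, 0 to 4 of the 21 were higher and 8 to 15 lower. Those fits called 605 to 4497 of all tested genes higher and 625 to 4147 lower. The causes were not tested. The replicate block called 2336 genes against 3062 without it and changed no other call of the 5 genes. Depth limits Cbr-hsp-70 and Cbr-sip-1 in wild type, at 12 to 35 counts a library.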
